A study of Mus musculus with 9 samples.

Results

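Antisense long non-coding RNAs (lncRNAs), which are transcribed from the strand opposite another gene, were examined in β-TC6 cells, an insulin-secreting mouse line grown from a tumour of pancreatic β cells. The members were the transcripts that the deposited lncRNA table classes as antisense, without 38 transcripts of 6 loci that were set aside. This left 4268 of 4306 antisense transcripts, at 2764 loci, out of 15589 lncRNA transcripts at 9635 loci in the table. A locus here is the set of antisense transcripts that share a gene identifier of the assembly, with their counts summed.

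The 9 libraries formed 3 groups of 3, which were untreated cells, cells given 400 µmol/L palmitic acid and cells given 400 µmol/L stearic acid. Each acid was given for 24 h together with 1.3% bovine serum albumin, while the sources do not state if untreated cells had albumin too, so acid and albumin cannot be told apart. All groups came from the same tumour line, and the labels do not say that the libraries of a group were separate cultures, so p-values measure the spread between these libraries, which may be technical. Between 1537431 and 2870275 counts per library were assigned to lncRNAs, of which 186789 to 383393 lay in the antisense loci. The table holds lncRNAs only, so that the coding genes opposite the loci were not measured. RNA was depleted of ribosomal RNA and the library kit keeps the strand, but no source used here gives the strand setting of the counting. Reads of an antisense transcript and of its partner gene therefore cannot be told apart with certainty where their exons overlap.

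Antisense lncRNAs are known to act on the gene they overlap in several ways, among them collision of polymerases, recruitment of chromatin-modifying complexes and formation of RNA duplexes that change splicing or stability. Many others have no known role. In β cells, antisense transcripts have been described at genes of islet transcription factors, such as Plut opposite Pdx1. Both acids are saturated, stearic acid being the longer by a pair of carbon atoms, and long exposure to such acids is known to impair insulin secretion and survival of β cells.

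Where exons of an antisense RNA overlap exons of the partner gene, the sequences are complementary. This is shown for Gm15991, which fell with both acids, and for Gm11946, which fell with stearic acid. The stretches below are exon sequence of the lncRNA from GENCODE mouse release M21 (GRCm38), read 5′ to 3′ on the strand of the lncRNA. Capitals mark the bases that are the exact reverse complement of coding exon sequence in the partner's transcripts, and lower-case bases lie in the same lncRNA exon but outside the partner's exon. Gm15991 shares 114 such bases with Psd3, an exchange factor for ARF GTPases, at chr8:67963725-67963838 on the plus strand, and the whole lncRNA exon is covered. Gm11946, chosen after its values were seen, shares 73 bases with a coding exon of Smtn, the gene of the actin-binding protein smoothelin, at chr11:3531030-3531132, and 72 bases with another at chr11:3533452-3533538, both on the plus strand. These are the shortest of 5 such stretches at Gm11946, the others being 119, 321 and 90 bases long.
Gm15991 opposite Psd3: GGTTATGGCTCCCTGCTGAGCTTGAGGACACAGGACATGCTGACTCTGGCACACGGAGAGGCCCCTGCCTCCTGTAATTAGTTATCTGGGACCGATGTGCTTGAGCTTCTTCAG
Gm11946 opposite Smtn, 73 bases in capitals: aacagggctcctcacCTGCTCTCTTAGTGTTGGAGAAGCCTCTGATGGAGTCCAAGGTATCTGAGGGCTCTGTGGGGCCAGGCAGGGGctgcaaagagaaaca
Gm11946 opposite Smtn, 72 bases in capitals: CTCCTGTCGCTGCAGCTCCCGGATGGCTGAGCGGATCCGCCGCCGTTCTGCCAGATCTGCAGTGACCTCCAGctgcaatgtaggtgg

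The antisense transcripts had slightly more exons on average than the other classes and a longer genomic span. The mean number of exons was 2.99 for antisense, 2.87 for intergenic and 2.70 for intronic transcripts. Every transcript had at least 2 exons and the median was 3, with 2090 transcripts of 2 exons (49.0%), 1148 of 3 exons (26.9%) and 1030 of 4 or more. The intergenic lncRNAs of the same table had a median of 2 exons, with 50.9% of transcripts at 2. Antisense transcripts spanned a median of 9.22 kb, against 5.53 kb for intergenic and 4.50 kb for intronic transcripts. The most exons lay in Gm12609, which runs opposite Cdkn2b and Cdkn2a, genes of cyclin-dependent kinase inhibitors. Its transcript TCONS_00176737 had 24 exons over 294968 bp and a mean of 13.5 CPM in control cells, where CPM is counts per 1000000 lncRNA counts after TMM scaling. Another, 4930579C12Rik, had a transcript of 22 exons. Transcripts of 2 exons held 54.6% of all antisense counts in control cells and those of 5 or more exons held 12.9%. Fewer of the antisense transcripts were listed as known by the authors than of the intergenic ones, at 14.5% against 34.0%.

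Most antisense loci had a single isoform. Of the 2764 loci, 2028 (73.4%) had 1 antisense transcript, 419 had 2, 317 had 3 or more and 87 had 5 or more. E130307A14Rik, opposite the signalling adaptor gene Traf3ip2, had 19, Gm12609 had 18, A530020G20Rik opposite Slc44a3 had 16, Six3os1 opposite the homeobox gene Six3 had 14 and 1500004A13Rik opposite Gon4l had 13. The share of loci with enough counts to be tested was larger with more isoforms, from 30.8% of loci with 1 isoform to 86.2% of those with 5 or more. None of these 5 isoform-rich loci was called with either acid as a sum, with log2 fold changes between -0.25 and 0.65. A530020G20Rik stood at 323, 347 and 360 CPM in control, at 337, 371 and 290 CPM with palmitic acid and at 352, 297 and 362 CPM with stearic acid, so that its 3 groups overlapped. As single transcripts, the authors' deposited tables list TCONS_00161572 of this locus at -1.99 with palmitic acid and TCONS_00161581 at -1.08 with stearic acid. They list TCONS_00164947 of 1500004A13Rik at -4.10 with stearic acid. It had 0 counts in every stearic library and also in palmitic acid replicate 2.

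Within a locus the isoform counts were less reproducible than their sum. At 473 tested loci with 2 or more isoforms the leading isoform held a median of 77.6% of the control counts, and the same isoform led in all 9 libraries at 239 loci (50.5%). At the 398 of these loci with a control mean of at least 10 counts in the sum and in an isoform, the median coefficient of variation over the control libraries was 16.6% for the sum and 29.4% for single isoforms, and it was the larger for the isoforms at 322 loci (80.9%). March4 shows how counts move between isoforms of 1 locus. TCONS_00002007 held 99.99%, 58.6% and 90.9% of the antisense counts at March4 in the control libraries, while the locus sum was 1447, 1716 and 1873 CPM. All values below are therefore sums over the locus unless a transcript is named.

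**Figure D1:**
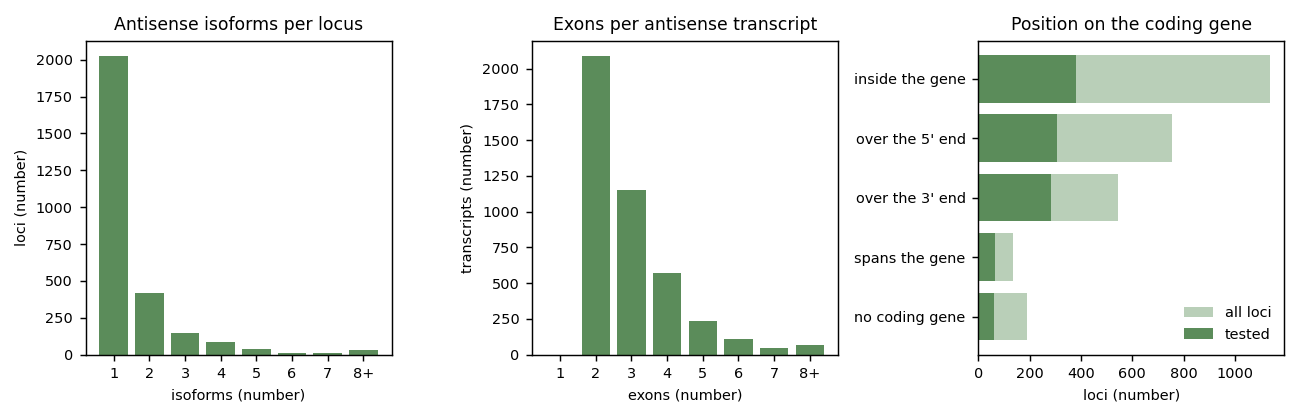
Antisense isoforms per locus (left, number of loci), exons per antisense transcript (middle, number of transcripts) and position of the locus on the coding gene of the other strand (right, number of loci, tested loci in dark green). Single isoforms (2028 loci) and 2-exon transcripts (2090) are the most frequent, and 1136 loci lie wholly inside the partner gene.

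Most loci lay opposite a protein-coding gene of the annotation. Of the 2764 loci, 2574 (93.1%) overlapped at least 1 coding gene on the other strand, 2652 different genes in all, and 187 of the remaining 190 had another kind of gene opposite. The locus lay wholly inside the partner gene in 1136 cases, over its 5′ end in 756, over its 3′ end in 545, and spanned it in 137. These positions use the outer limits over all isoforms of a locus, whichever isoform holds the counts. The start of the antisense locus was within 1 kb of the partner's start at 404 loci (15.7%). Pcsk2, the gene of prohormone convertase 2 that processes proinsulin and proglucagon, had 4 antisense loci, as had Scd2, a stearoyl-CoA desaturase gene, and Fyn, a Src-family kinase gene. Where GENCODE gives exons for the lncRNA itself (1414 loci), those exons overlapped a coding exon of the partner at 760 loci (53.7%), an untranslated exon alone at 268 and introns alone at 355 (25.1%).

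The antisense loci were more often measurable than the other classes. A count above 0 in some library was found at 2372 loci, in all 9 libraries at 1221, and in none at 392. The filter on low counts kept 1097 antisense loci (39.7%), against 28.4% of intergenic and 26.3% of intronic loci. By FPKM, a level per length that is summed here over the isoforms of a locus, the median of the loci above 0 in control cells was 6.55, with quartiles at 2.53 and 17.8, against 4.49 for intergenic and 2.91 for intronic loci. Only 15 antisense loci reached 1000 CPM in control cells and 122 reached 100 CPM.

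**Figure D2:**
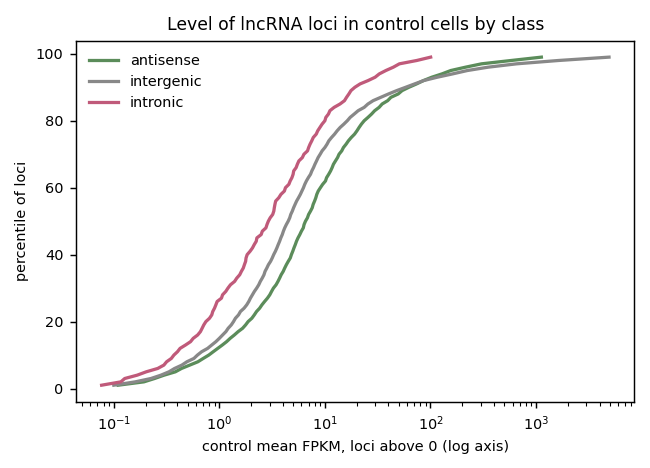
Control mean FPKM (x, log axis) of lncRNA loci above 0, by percentile (y), for antisense, intergenic and intronic loci. The antisense curve lies to the right of the others over the middle of the distribution, with medians at 6.55, 4.49 and 2.91 FPKM in that order.

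The antisense share of all lncRNA counts overlapped between groups. It was 14.6%, 13.4% and 13.4% in the control libraries, 13.8%, 13.5% and 13.4% with palmitic acid and 14.1%, 12.1% and 13.8% with stearic acid. The means were 13.8% ± 0.682 (SD, n = 3), 13.6% ± 0.239 and 13.4% ± 1.06, and the groups overlapped. Two-sided exact permutation tests gave p = 0.9 for palmitic acid against control, 0.6 for stearic acid against control and 0.9 between the acids, all 0.9 after adjustment over the 3 comparisons, where 3 against 3 libraries cannot go below 0.1.

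The 10 loci with the most counts in control cells held between 56.2% and 61.5% of the antisense counts of a library. XLOC_013315, on chromosome 10 opposite the miRNA gene Gm22913, had a control mean of 28013 CPM ± 1615 (SD) and of 31973 FPKM. D230017M19Rik, opposite Mreg and Pecr, had 13276, 23962 and 25685 CPM in control, with a library well below the other two, and both acid groups overlapped that range. Gm43534 had 5124 CPM but a level per length of 24129 FPKM, while the locus opposite Slc30a8, the gene of the zinc transporter of insulin granules, had 3779 CPM at 241 FPKM. Counts and levels per length therefore order these loci differently. Some of them lie over abundant RNAs of other kinds. The locus opposite Frmd8 also runs opposite Malat1 and Neat1, abundant nuclear lncRNAs, and the locus named Gm22513 holds a small nuclear RNA gene on its own strand and lies opposite Eapp.

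Of these 10 loci, 3 changed with stearic acid and none was called with palmitic acid. The locus opposite Frmd8 stood at 9630, 7007 and 7854 CPM in control, 10642, 9924 and 9291 CPM with palmitic acid and 11690, 10199 and 10645 CPM with stearic acid. All stearic libraries lay above all control libraries (log2 fold change 0.41 ± 0.12 SE, edgeR adjusted p = 0.0406), but the adjusted p rose to 0.18, 0.126, 0.129 and 0.0791 without control replicate 2 or 3 or stearic acid replicate 1 or 3. Gm43534 fell by 0.79 on the log2 scale ± 0.21, with 3236, 5465 and 6672 CPM in control and 2471, 2644 and 3798 CPM with stearic acid, and these groups overlapped (edgeR adjusted p = 0.0216). That call was lost without control replicate 2 or 3 or without stearic acid replicate 1 or 2, at adjusted p of 0.0975, 0.139, 0.0883 and 0.0638, and with DESeq2 at 0.0867. Gm22513 fell by 0.54 ± 0.13, from 1734, 2361 and 2375 CPM to 1379, 1489 and 1592 CPM without overlap (edgeR adjusted p = 0.0128), and the call was lost without control replicate 2 or 3 or stearic acid replicate 1, at 0.0747, 0.0752 and 0.0518.

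**Figure D3:**
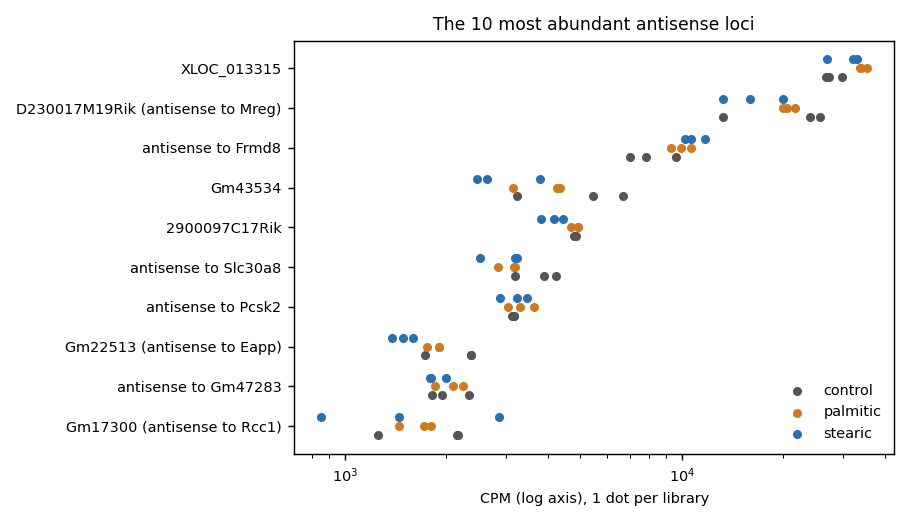
CPM (x, log axis) of the 10 antisense loci with the most counts in control cells, 1 dot per library, coloured by group. XLOC_013315 and D230017M19Rik lead in each group, and the stearic libraries of Gm22513 (1379 to 1592 CPM) lie below the control libraries (1734 to 2375 CPM).

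With palmitic acid, few antisense loci changed. At an edgeR quasi-likelihood adjusted p under 0.05 over all 3157 tested lncRNA loci, 28 of 1097 antisense loci were called (2.55%), 16 higher and 12 lower. The background over all lncRNA loci was 4.94% called, 3.2% higher and 1.74% lower, so the antisense share was below it. Among intergenic loci 5.93% were called. Whether the classes differ was not tested. The median log2 fold change of the tested antisense loci was -0.10, against -0.02 over all tested loci. Among the called loci the median was 1.22 for the higher and -0.98 for the lower. Some of the loci that rose passed the filter on low counts through treated libraries, where they are high. They count toward the 16 and the 1.22, so neither value by itself is support for a rise. Scaled by library size alone, 8 rose and 11 fell, which turns the split. The count was 8, 9 and 15 without control replicate 1, 2 or 3 and 19, 9 and 14 without palmitic acid replicate 1, 2 or 3, and 4 loci were called in each of these 6 fits.

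**Figure D4:**
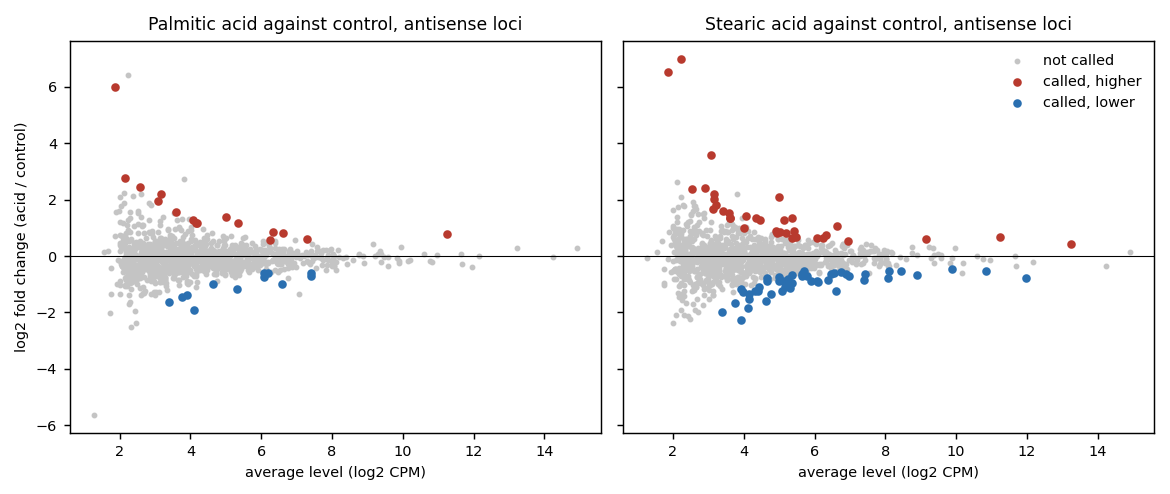
Log2 fold change (y) of the 1097 tested antisense loci against their average level in log2 CPM (x), for palmitic acid (left) and stearic acid (right) against the same control libraries. Called loci are coloured (16 higher and 12 lower with palmitic acid, 35 higher and 48 lower with stearic acid), and the points farthest from 0 have low levels.

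The 4 loci that kept their call with palmitic acid whichever library was left out were called with stearic acid in every such fit as well. The comparisons share their control libraries, so a shift in the controls moves them together. Gm15991, which lies inside Psd3, stood at 31.0, 37.5 and 27.8 CPM in control, at 9.19, 8.01 and 8.07 CPM with palmitic acid and at 8.56, 4.69 and 12.3 CPM with stearic acid. Every treated library was below every control library, with log2 fold changes of -1.92 ± 0.32 (SE, edgeR adjusted p = 0.000972) and -1.85 ± 0.32 (edgeR adjusted p = 0.00113). Its isoform TCONS_00248344 held 58.0% of the control counts, and no isoform of the locus held more than 60% of its counts in any group mean.

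The locus inside Dock1, a gene of an activator of the GTPase Rac, fell with each acid as well. It stood at 69.8, 59.9 and 52.3 CPM in control, at 25.4, 30.2 and 25.9 CPM with palmitic acid and at 27.6, 33.5 and 23.4 CPM with stearic acid. The treated libraries did not overlap the controls, and the log2 fold changes were -1.16 ± 0.20 (edgeR adjusted p = 0.00141) and -1.12 ± 0.20 (edgeR adjusted p = 0.0015). The counts were spread over 9 isoforms, of which the leading one held 30.9% in control.

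A930001C03Rik rose with each acid. This locus of 8 isoforms spans Syt12, a gene of the synaptotagmin family of membrane-trafficking proteins. It stood at 16, 12.2 and 8.17 CPM in control, at 26.1, 30.9 and 36.5 CPM with palmitic acid and at 46.6, 61.7 and 46.1 CPM with stearic acid. The 3 groups did not overlap, with log2 fold changes against control of 1.38 ± 0.26 (edgeR adjusted p = 0.00397) and 2.09 ± 0.26 (edgeR adjusted p = 3.45e-05). The locus opposite Gm10271 and Rab3ip, an exchange factor gene for Rab GTPases, stood at 65.9, 60.8 and 54.6 CPM in control, at 94.9, 96.9 and 130 CPM with palmitic acid and at 139, 121 and 117 CPM with stearic acid. It was above control in all treated libraries, with log2 fold changes of 0.83 ± 0.17 (edgeR adjusted p = 0.0065) and 1.06 ± 0.17 (edgeR adjusted p = 0.000475).

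Other loci that fell with palmitic acid were those at Abcc6, Tacc3 and Kif18b. The locus inside Abcc6, a gene of an ATP-binding cassette transporter, stood at 126, 157 and 165 CPM in control, at 64.7, 61.4 and 99.4 CPM with palmitic acid and at 54.7, 51.6 and 81.9 CPM with stearic acid. All treated libraries were lower (log2 fold change -0.99 ± 0.21 with palmitic acid, edgeR adjusted p = 0.00791, and -1.24 ± 0.21 with stearic acid, edgeR adjusted p = 0.000912). The palmitic call was lost without palmitic acid replicate 1 or 2, at edgeR adjusted p of 0.0525 and 0.0632, and the stearic call was never lost. Gm42965, over the 3′ end of Tacc3, a gene of a spindle protein, fell from 201, 252 and 241 CPM to 130, 137 and 161 CPM with palmitic acid and to 132, 133 and 119 CPM with stearic acid. Its log2 fold changes were -0.70 ± 0.15 (edgeR adjusted p = 0.00815) and -0.85 ± 0.15 (edgeR adjusted p = 0.00105), and the palmitic call was lost without control replicate 2 or palmitic acid replicate 1 or 2, at 0.0591, 0.0569 and 0.0568. The locus inside Kif18b, a gene of a mitotic kinesin, was at 94.0, 91.5 and 87.2 CPM in control, 48.9, 69.1 and 60.3 CPM with palmitic acid and 52.3, 40.2 and 55.5 CPM with stearic acid. Its palmitic call (edgeR adjusted p = 0.0475) was lost in all 6 fits that left out a library, at adjusted p from 0.0601 to 0.214, while the stearic call (log2 fold change -0.87 ± 0.18, edgeR adjusted p = 0.0039) was kept in all 6.

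The loci at Tubb2a, Myo7b and Vwa5b1 also fell with both acids. The locus over the 5′ ends of Tubb2a and Tubb2b, β-tubulin genes, fell by 0.75 on the log2 scale with palmitic acid and by 0.94 with stearic acid (edgeR adjusted p = 0.0245 and 0.00413). Without control replicate 2 or 3 or palmitic acid replicate 1 or 2 the palmitic call was lost, at 0.132, 0.107, 0.0618 and 0.145. Gm16344 inside Myo7b, a gene of an unconventional myosin, fell by 0.61 and 0.63 (edgeR adjusted p = 0.0245 and 0.0133), with the palmitic call lost in 5 of the 6 fits, all but the one without palmitic acid replicate 1, at adjusted p from 0.0674 to 0.155, and the stearic call lost without control replicate 1 or stearic acid replicate 3, at 0.0593 and 0.0584. Beside these, the locus inside Vwa5b1 was at 45.1, 48.7 and 23.4 CPM in control, with 1 library near the treated range, at 22.1, 19.1 and 17.8 CPM with palmitic acid and at 13.3, 12.7 and 12.8 CPM with stearic acid. It fell by 1.58 ± 0.29 with stearic acid (edgeR adjusted p = 0.0015) in every fit, and its palmitic call (edgeR adjusted p = 0.0423) held only in the fit without control replicate 3, with 0.0858 to 0.207 in the others.

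Among the loci that rose with palmitic acid, the one over the 5′ end of March4, a gene of a membrane-bound ubiquitin ligase, had the most counts. Its values were 1447, 1716 and 1873 CPM in control, 2585, 2603 and 3522 CPM with palmitic acid and 3063, 1893 and 3137 CPM with stearic acid. All treated libraries were above the controls, and stearic acid replicate 2 was close to the highest of them. The log2 fold changes were 0.79 ± 0.17 (edgeR adjusted p = 0.012) and 0.68 ± 0.17 (edgeR adjusted p = 0.0159). The calls were lost without control replicate 1 (0.0647 and 0.0776), without palmitic acid replicate 3 (0.0643), and for stearic acid without control replicate 2 or stearic acid replicate 1 or 3 (0.0588, 0.0645 and 0.0818). Gm28592, which spans Nap1l1, a histone chaperone gene, rose from 27.1, 13.1 and 21.9 CPM to 41.2, 40.8 and 57.3 CPM with palmitic acid and 41.9, 75.7 and 43.2 CPM with stearic acid (log2 fold change 1.16 ± 0.27, edgeR adjusted p = 0.0185, and 1.34 ± 0.28, edgeR adjusted p = 0.00397). The palmitic call was lost without control replicate 2 or 3 or palmitic acid replicate 3, at 0.103, 0.0518 and 0.0823. The locus inside H2-D1, an antigen-presenting MHC class I gene, rose by 0.86 and 0.76 (edgeR adjusted p = 0.0291 and 0.037), and H2-D1 belongs to a multigene family whose reads the counting could share out, so that its values are uncertain. Without control replicate 1 or 2 or palmitic acid replicate 2 or 3 its palmitic call was lost, at 0.139, 0.0658, 0.114 and 0.129, and its stearic call was lost in all 6 fits, at 0.0522 to 0.157.

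Another group of loci called with palmitic acid was small in counts or close to the threshold. 4930426D05Rik over the 5′ end of Klhl14 rose by 1.28 on the log2 scale (edgeR adjusted p = 0.0423), the locus spanning Gm4922 by 1.16 (0.036), that inside Ppp2r5c, a gene of a regulatory subunit of protein phosphatase 2A, by 1.16 (0.0423) and that inside 2010111I01Rik by 0.60 (0.0185). Of these, the locus at Ppp2r5c also has 12 transcripts of other classes, and with all classes summed its change was -0.18 (edgeR adjusted p = 0.611). Each of these calls was lost in at least 4 of the 6 fits that left out a library, at adjusted p up to 0.203. They were kept only without control replicate 2 (Klhl14, Gm4922), control replicate 3 (2010111I01Rik) or palmitic acid replicate 3 (Gm4922, 2010111I01Rik).

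**Figure D5:**
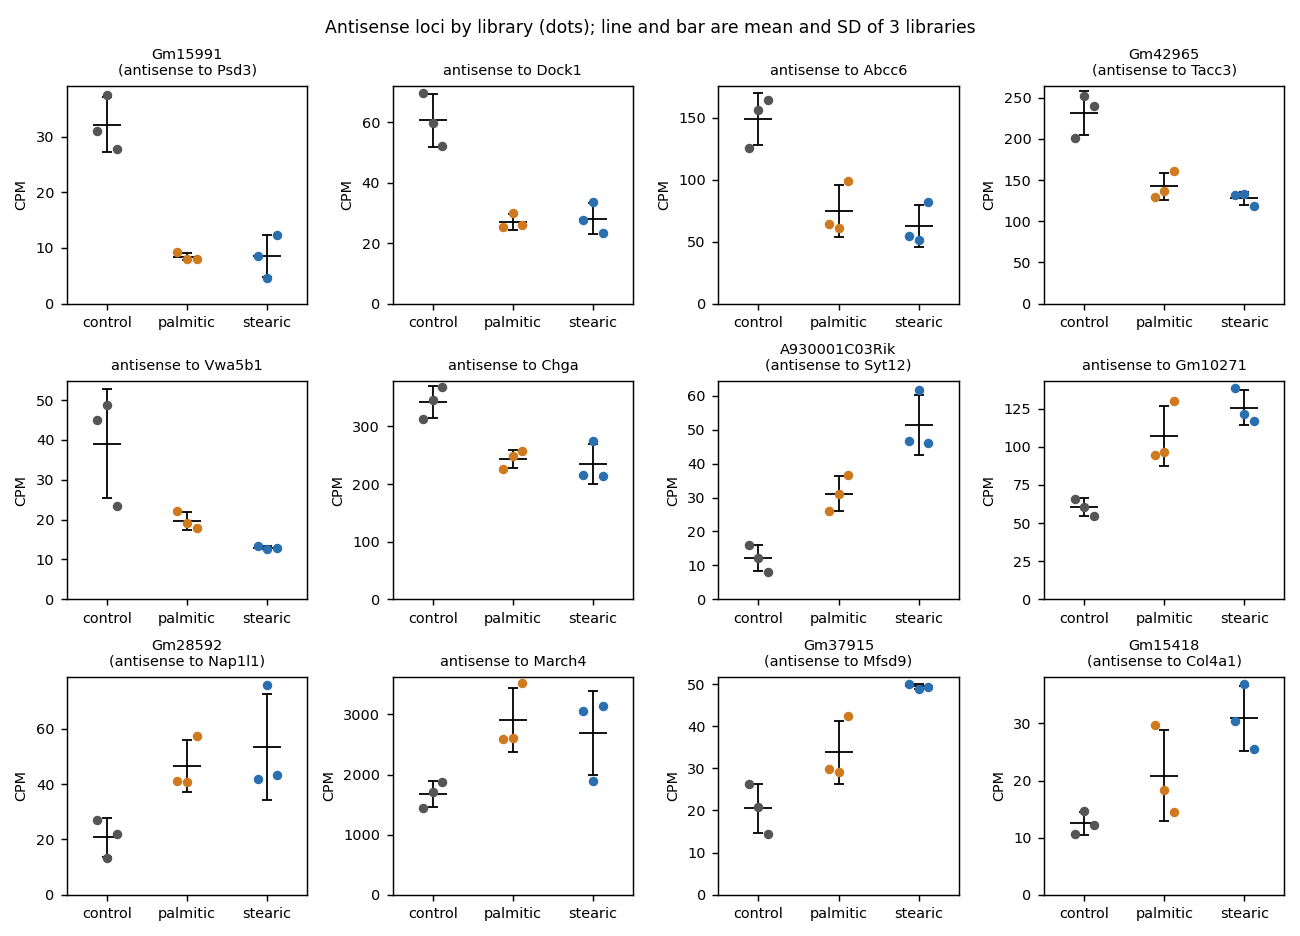
CPM (y, from 0) of 12 antisense loci in each library (dots), with the mean and SD of 3 libraries, for control, palmitic acid and stearic acid. The loci at Psd3, Dock1, Abcc6, Tacc3, Vwa5b1 and Chga lie lower in treated libraries and the other 6 higher, and the palmitic libraries of Gm15418 (14.4 to 29.8 CPM) overlap the highest control library (14.6 CPM).

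With stearic acid, 83 of 1097 antisense loci were called (7.57%), 35 higher and 48 lower, by the same edgeR test. Over all tested lncRNA loci 10.1% were called, 5.51% higher and 4.56% lower, so that the antisense share of 3.19% higher lay below the background and that of 4.38% lower lay near it. Intergenic loci were called at 11.2%. The median log2 fold change of the tested antisense loci was -0.09, against 0.00 over all tested loci. Called loci had a median of 1.29 when higher and -0.88 when lower. The count was 55, 49 and 50 without control replicate 1, 2 or 3 and 63, 72 and 51 without stearic acid replicate 1, 2 or 3. In all 6 fits 27 loci were called (9 higher, 18 lower). Of the 9 higher, Gm11716, Gm16685 and XLOC_144451 passed the filter on low counts through treated libraries, so their calls are no support for a rise. Such loci also count toward the 35 higher and their median of 1.29.

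Of the loci called only in the stearic comparison, Gm37915 and Gm15418 rose in every such fit. That the call is missing with palmitic acid does not show that the acids differ. Gm37915, over the 3′ end of Mfsd9, stood at 26.2, 20.9 and 14.5 CPM in control, at 29.8, 29.0 and 42.5 CPM with palmitic acid and at 49.9, 48.9 and 49.4 CPM with stearic acid. Its treated libraries all lay above the controls, with a log2 fold change of 1.28 ± 0.24 for stearic acid (edgeR adjusted p = 0.00173) and 0.73 ± 0.24 for palmitic acid (edgeR adjusted p = 0.0927). Gm15418, over the 3′ end of Col4a1, a gene of basement membrane collagen, stood at 10.7, 14.6 and 12.2 CPM in control, at 29.8, 18.3 and 14.4 CPM with palmitic acid and at 30.4, 36.9 and 25.5 CPM with stearic acid. It rose by 1.29 ± 0.30 with stearic acid (edgeR adjusted p = 0.00928), and the palmitic libraries overlapped both other groups.

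Further loci that rose with stearic acid were those at Vgf, Cacnb4, Bcl2l12 and Sp140. The locus inside Vgf, which encodes a precursor of secreted neuroendocrine peptides, was at 13.1, 7.30 and 11.5 CPM in control and at 22.4, 41.5 and 19.7 CPM with stearic acid (log2 fold change 1.35 ± 0.37, edgeR adjusted p = 0.0249). That call was lost without control replicate 2, control replicate 3 or stearic acid replicate 2, the highest library, at 0.117, 0.0598 and 0.131. A430018G15Rik, over the 3′ end of Cacnb4, a gene of a calcium channel subunit, rose by 0.88 ± 0.21 (edgeR adjusted p = 0.0111), lost without control replicate 3 or stearic acid replicate 3 at 0.0625 and 0.0785. Gm15545, over the 3′ end of Bcl2l12, a gene of the BCL2 family, was at 17.4, 23.4 and 17.8 CPM in control and 28.1, 50.9 and 32.1 CPM with stearic acid (log2 fold change 0.90 ± 0.27, edgeR adjusted p = 0.0393). It kept its call only without stearic acid replicate 1, with 0.0558 to 0.18 in the other 5 fits. Gm17017, opposite Sp140 and Sp100, genes of nuclear body proteins, rose by 1.01 ± 0.31 (edgeR adjusted p = 0.0422). Its call was kept only without control replicate 3, with 0.0688 to 0.135 in the other 5 fits, 0.0548 with a replicate block and 0.0512 with DESeq2.

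The loci that fell with stearic acid and kept their calls in all 6 fits included those at Arhgap19, Ccnf, Pde4b and Rasgrf1. The locus inside Arhgap19, a gene of a GTPase-activating protein, stood at 42.7, 56.9 and 36.7 CPM in control, at 30.9, 33.2 and 37.8 CPM with palmitic acid and at 20.0, 16.1 and 20.2 CPM with stearic acid. The stearic libraries were the lowest throughout, and the palmitic libraries overlapped the controls (log2 fold change -1.26 ± 0.23, edgeR adjusted p = 0.00147, against -0.42 ± 0.21, edgeR adjusted p = 0.303). The locus inside Ccnf, the gene of cyclin F, stood at 22.8, 21.9 and 31.5 CPM in control, at 13.6, 18.3 and 15.3 CPM with palmitic acid and at 7.13, 13.4 and 6.99 CPM with stearic acid (log2 fold change -1.52 ± 0.32, edgeR adjusted p = 0.00534, and -0.70 ± 0.30, edgeR adjusted p = 0.209). Its 3 groups did not overlap. The locus inside Pde4b, a gene of a cAMP phosphodiesterase, fell by 1.23 ± 0.28 (edgeR adjusted p = 0.00891), and that over the 5′ end of Rasgrf1, a gene of a Ras exchange factor, fell by 1.35 ± 0.29 (edgeR adjusted p = 0.00592). With palmitic acid the same pair had log2 fold changes of -0.42 ± 0.26 and -0.89 ± 0.28, at edgeR adjusted p of 0.43 and 0.076.

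Less certain falls with stearic acid were seen at 4930444A19Rik inside Ankrd44, 4930557F10Rik and Gm26625 inside Ezh2, the gene of the histone methyltransferase of Polycomb complex 2. Gm26625 was at 32.0, 20.0 and 24.9 CPM in control, at 16.9, 27.1 and 16.6 CPM with palmitic acid and at 17.1, 5.36 and 9.46 CPM with stearic acid. The stearic libraries lay below the controls with a wide spread (log2 fold change -1.23 ± 0.36, edgeR adjusted p = 0.0351), and the call was lost without control replicate 1 or 3 or stearic acid replicate 2 or 3, at 0.126, 0.0749, 0.108 and 0.119. The log2 fold changes of the other two were -1.27 and -1.36 (edgeR adjusted p = 0.0389 and 0.0402). The first kept its call only without stearic acid replicate 2, with 0.0519 to 0.14 otherwise, and the second lost it without control replicate 1 or 2 or stearic acid replicate 1 or 3, at 0.144, 0.105, 0.139 and 0.132.

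Some of the steepest changes were at loci of low level, which were chosen after their values were seen. Gm11716, Gm16685, XLOC_144451 and A330009N23Rik passed the filter on low counts through treated libraries, where they are high, so that their levels are given as a description without a test. Gm11716, inside Pitpnc1, a gene of a phosphatidylinositol transfer protein, stood at 1.94, 0.973 and 1.11 CPM in control, at 4.04, 6.11 and 5.95 CPM with palmitic acid and at 20.5, 16.1 and 13.6 CPM with stearic acid. The 3 groups were in this order without overlap (log2 fold change 3.6 with stearic acid and 1.97 with palmitic acid). Gm16685, whose start lies near that of Il7, the gene of interleukin 7, went from 1.94, 2.92 and 4.45 CPM to 15.7, 17.4 and 11.1 CPM with stearic acid (log2 fold change 2.19). Opposite Tmsb15l, a gene of the thymosin family of actin-binding peptides with near-identical copies beside it, the locus fell from 32.0, 27.3 and 20.8 CPM to 7.13, 4.02 and 4.94 CPM (log2 fold change -2.28 ± 0.39, edgeR adjusted p = 0.000912). Its reads could be shared with those copies. Inside Ttc28 the locus fell from 25.2, 22.4 and 20.8 CPM to 10.3, 6.87 and 7.64 CPM with palmitic acid and 6.66, 6.70 and 7.82 CPM with stearic acid (log2 fold change -1.45 ± 0.32, edgeR adjusted p = 0.0113, and -1.67 ± 0.33, edgeR adjusted p = 0.00283). Its palmitic call was lost without control replicate 1 or palmitic acid replicate 2, at edgeR adjusted p of 0.0551 and 0.0559.

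XLOC_144451, opposite the miRNA gene Mir7240, had 0 counts in all control libraries and 7.13, 6.03 and 2.06 CPM with stearic acid, which is at least 11.6-fold higher against 3 counts over the control group. With palmitic acid it was at 6.62, 2.29 and 1.27 CPM, at least 7.73-fold higher. A330009N23Rik over the 5′ end of Grasp was also at 0 in control, and stood at 0, 6.7 and 14 CPM with stearic acid, at least 15.7-fold higher in the mean, and these groups overlapped. At their bounds both loci still lie above the medians of the loci that rose, which are therefore the same.

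Between the acids no antisense locus was called. By edgeR 0 of 1097 were called, against a background over all loci of 0.095%, with 0.0634% higher and 0.0317% lower, and 71 antisense loci had an unadjusted p under 0.05. DESeq2 called 0 as well, and the median log2 fold change of stearic against palmitic acid was 0.01. The lowest edgeR adjusted p was 0.274, at Gm11716. That locus passed the filter on low counts through treated libraries, so this value is no support for a difference. A930001C03Rik differed by 0.72 on the log2 scale (95% confidence interval 0.22 to 1.21), and the locus inside Arhgap19 by -0.84 (-1.32 to -0.36). Neither passed the adjusted threshold. Narrower intervals around 0 were found for the loci inside Dock1, at 0.04 (-0.40 to 0.48), and Chga, at -0.06 (-0.36 to 0.24). Gm15991 had a wider one, at 0.07 (-0.67 to 0.80), which does not show that the acids act alike.

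Antisense loci of genes that define β cells were among those with the most counts. Of 61 listed genes of β-cell identity and insulin secretion, 24 had an antisense locus, 34 loci in all, of which 20 were tested. With palmitic acid 19 were not called and the remaining locus is not reported here. The median log2 fold change over the 20 was -0.06. With stearic acid 2 fell, 17 were not called and the same remaining locus is not reported here. The median over the 20 was -0.24 with stearic acid, against 0.00 over all loci, of which 10.1% were called. The 2 that fell lie inside Chga, the gene of chromogranin A of secretory granules, and inside Pcsk2 (XLOC_086085, named after its values were seen, from 149, 119 and 171 CPM to 73.2, 103 and 108 CPM). The call at Pcsk2 (log2 fold change -0.63 ± 0.18, edgeR adjusted p = 0.0293) was lost without control replicate 1 or 3 or stearic acid replicate 1, at 0.0765, 0.148 and 0.139. At Chga the locus stood at 314, 345 and 369 CPM in control, at 226, 249 and 257 CPM with palmitic acid and at 215, 275 and 214 CPM with stearic acid, so that no treated library reached the controls (log2 fold change -0.55 ± 0.14 with stearic acid, edgeR adjusted p = 0.0177, and -0.49 ± 0.14 with palmitic acid, edgeR adjusted p = 0.0527). The stearic call was lost without control replicate 2 or 3 or stearic acid replicate 1 or 3, at 0.0631, 0.089, 0.075 and 0.082.

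Several other loci of that list had high counts and were not called as sums. Opposite Slc30a8 the values were 4243, 3205 and 3889 CPM in control, 3178, 3208 and 2853 CPM with palmitic acid and 3202, 2523 and 3234 CPM with stearic acid, which overlap. XLOC_086087 inside Pcsk2 had 3172, 3180 and 3126 CPM in control and Pcsk2os1 1282, 1301 and 1247 CPM. Plut, opposite the transcription factor gene Pdx1, was at 350, 367 and 318 CPM in control, 340, 288 and 352 CPM with palmitic acid and 254, 286 and 284 CPM with stearic acid, with all stearic libraries below the controls (log2 fold change -0.33 ± 0.13, edgeR adjusted p = 0.132). For its single transcript TCONS_00206490, the authors' deposited table gives a log2 fold change of -1.35 with stearic acid. That transcript held 41.2% of the Plut counts in control and 19.1% with stearic acid. For Pcsk2os1, the authors' deposited table gives -1.31 for TCONS_00148776 and -1.26 for TCONS_00148782 with stearic acid. The Pcsk2os1 sum changed by -0.24 (edgeR adjusted p = 0.207). Among genes that mark other cells of the pancreas, those of α, δ, PP and acinar cells, macrophages and endothelial cells had no antisense locus in the table. The duct and fibroblast lists had 1 locus each, neither tested, at up to 1.34 and 2.23 CPM in a library. In bulk RNA, fewer cells with a transcript and less of it per cell cannot be told apart.

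Loci opposite genes of stress, lipid and growth pathways were few and mostly not called. Of 30 listed genes of endoplasmic reticulum stress 8 had antisense loci, 2 of which were tested, with none called. They were Gm15890 at Herpud1, with 40.2, 45.8 and 32.7 CPM in control and 42.8, 38.2 and 37.0 CPM with stearic acid, and the locus spanning Mief1 and Atf4, with 153, 133 and 145 CPM in control and 176, 198 and 169 CPM with stearic acid. Of the 9 tested loci of fatty acid and sterol genes none was called, with medians of 0.22 with palmitic acid and 0.09 with stearic acid. The widest of these at Scd2, a gene of a desaturase that acts on palmitic and stearic acid, stood at 221, 192 and 223 CPM in control, 232, 248 and 256 CPM with palmitic acid and 223, 256 and 197 CPM with stearic acid, which overlap for stearic acid.

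None of the 2 tested loci of apoptosis genes, the 2 of the cell cycle and the 5 of oxidative stress genes was called either. Gm12609, opposite the kinase inhibitor genes Cdkn2b and Cdkn2a, belongs to both former lists and stood at 305, 275 and 318 CPM in control, at 261, 258 and 254 CPM with palmitic acid and at 261, 257 and 236 CPM with stearic acid. The treated libraries were all lower (log2 fold change -0.22 ± 0.13, edgeR adjusted p = 0.384, and -0.25 ± 0.13, edgeR adjusted p = 0.234). Among the oxidative stress loci, the one over the 5′ end of Srxn1, the sulfiredoxin gene, stood at 123, 137 and 109 CPM in control and at 73.2, 101 and 84.3 CPM with stearic acid (log2 fold change -0.52 ± 0.17, edgeR adjusted p = 0.0585). Of the 2 tested loci of inflammation genes, Gm17017 rose with stearic acid and the locus inside Sp110 had 14.1, 18 and 25.6 CPM in control and 36.6, 38.9 and 26.7 CPM with stearic acid (log2 fold change 0.80 ± 0.26, edgeR adjusted p = 0.0573). Gm26625 at Ezh2 was the single call among 9 tested loci of chromatin and transcription regulators, whose median log2 fold change with stearic acid was -0.33. These counts stand beside 10.1% of all tested lncRNA loci called with stearic acid and 4.94% with palmitic acid.

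The called shares are given by position on the partner gene and by number of isoforms, with no test of differences between them. With stearic acid, 8 loci inside their partner gene were higher and 28 lower, of 381 tested (9.45% called), while over the 3′ end 11 were higher and 6 lower of 282 (6.03%), and over the 5′ end 10 were higher and 8 lower of 307 (5.86%). Loci that span their partner were called at 9.09% of 66 and those without a coding gene opposite at 9.84% of 61. Over all tested lncRNA loci the share was 10.1%. With palmitic acid the called shares were 3.41%, 1.77%, 1.63%, 4.55% and 3.28% in the same order, against 4.94% over all tested lncRNA loci. Loci with 5 or more isoforms were called at 8% with palmitic acid and 21.3% with stearic acid, of 75 tested, those with 3 or 4 at 4.60% and 8.62%, those with 2 at 0.893% and 4.46%, and those with 1 at 1.92% and 6.73% of 624. The loci with 5 or more had a median of 46.2 CPM in control and those with 1 of 11.7 CPM, and the part of depth in these shares was not tested.

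Promoter sequence was examined where RefSeq (GRCm38.p6) gives a window, from 250 bases before to 50 after the annotated start. Of 1517 loci with a gene name on their own strand, 659 had such a window and 476 had it within 1 kb of the locus start, 13 of them called. Median GC content of the 476 windows was 55.7%, against 52.7% over all 32851 windows, and the TATA motif TATAAA was present in 7.77% against 13.6%. The GC box GGGCGG was present in 40.5% against 35.7%, the CCAAT box CCAAT in 33.4% against 37.4% and the E box CACGTG in 6.93% against 7.15%, on either strand. Windows of tested loci were richer in GC (60%) and in GGGCGG (50.3%). Of the 13 windows of called loci, 7 had GGGCGG, 2 had CCAAT and 0 had TATAAA or CACGTG. The windows of Gm15418 and Gm15545 are shown because both loci rose with stearic acid and start within 26 bases of the annotated start. Capitals mark GGGCGG or CCAAT, written as CCGCCC or ATTGG where the match is on the other strand, and they do not overlap.
Gm15418, chr8:11187479-11187778, plus strand: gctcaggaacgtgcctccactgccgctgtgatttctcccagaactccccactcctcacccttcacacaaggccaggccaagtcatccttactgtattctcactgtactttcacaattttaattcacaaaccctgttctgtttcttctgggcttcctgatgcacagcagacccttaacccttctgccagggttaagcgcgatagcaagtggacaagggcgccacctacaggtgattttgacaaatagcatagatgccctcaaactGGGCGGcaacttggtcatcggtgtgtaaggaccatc
Gm15545, chr7:44986650-44986949, plus strand: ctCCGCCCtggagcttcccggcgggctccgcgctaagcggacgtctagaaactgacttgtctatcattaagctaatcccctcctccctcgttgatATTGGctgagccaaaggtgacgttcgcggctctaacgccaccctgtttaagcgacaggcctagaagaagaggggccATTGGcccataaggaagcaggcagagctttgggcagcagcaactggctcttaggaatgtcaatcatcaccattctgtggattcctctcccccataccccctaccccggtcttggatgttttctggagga
Gm15418 has a single GC box near its start, and Gm15545 has a GC box and a pair of CCAAT boxes. These are matches of letters and say nothing of binding.

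The authors' deposited tables of single transcripts were read beside these sums. The antisense transcripts listed there all changed by more than 2-fold, while the sums were called without a fold threshold. The authors' deposited table for palmitic acid lists 81 transcripts, 17 of them antisense, 9 higher and 8 lower, at 15 loci, of which 7 were also called as a sum. That for stearic acid lists 189, of which 47 were antisense (24 higher, 23 lower) at 43 loci, 25 of them called as a sum. Between the acids the authors' deposited table lists 17, of which 6 were antisense (2 higher and 4 lower with stearic acid). Among these, the authors' deposited table gives -1.81 for TCONS_00039055 of D030028A08Rik, -1.60 for TCONS_00034820 of Gm11946 and -1.55 for TCONS_00201321 of Gm42965 on the log2 scale. No antisense locus was called as a sum between the acids, so none of the 6 could be shared. For Gm15991 the authors' deposited table gives TCONS_00248344 a log2 fold change of -1.62 with palmitic acid and -1.73 with stearic acid. At Gm11946 the authors' deposited table gives TCONS_00034820 a rise of 1.87 and TCONS_00034821 a change of -1.04 with palmitic acid, in opposite directions at 1 locus, whose sum was 45.6, 56.5 and 44.2 CPM in control, 29.8, 29.0 and 41.2 CPM with palmitic acid and 26.2, 24.8 and 25.5 CPM with stearic acid. As a sum Gm11946 was not called with palmitic acid (log2 fold change -0.55 ± 0.20, edgeR adjusted p = 0.136) and fell by 0.93 ± 0.21 with stearic acid (edgeR adjusted p = 0.00779).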

How the data were processed

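Total RNA of 9 samples was sequenced after removal of ribosomal RNA. Per the submitters' processing notes, the tools were bcl2fastq 2.17.1.14, Trimmomatic 0.30, HISAT2 2.0.1, HTSeq 0.6.1 and DESeq, with mm10 as the build. No source used here gives the assembler, the annotation or the strand setting. The authors deposited an expected count and an FPKM per transcript and library; 51.8% of the expected counts above 0 are whole. The authors' deposited tables also give log2 fold changes and p-values per transcript. Samples were grouped by their labels.

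Expected counts were summed per gene identifier within a class, rounded and tested with edgeR 4.0.16 (R 4.3.3): filterByExpr, TMM, a quasi-likelihood fit of all 9 libraries with 6 residual degrees of freedom, and Benjamini-Hochberg adjustment over all 3157 loci. The biological coefficient of variation was 0.225. CPM uses TMM-scaled totals of lncRNA counts. The procedure was checked on simulated data. Tests were two-sided, and the share of counts was compared by exact permutation.

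Partner genes come from GENCODE M21 (GRCm38), where 4214 of the 4268 transcripts' identifiers were found. Of these, 2607 lie on the strand of that gene and 1473 carry the identifier of a coding gene on the other strand. Named loci were, per comparison, the 10 largest rises and 10 largest falls among called loci at or above the median level, the 10 with most control counts, the 5 with most isoforms, up to 6 per list of partner genes, and the 5 with the smallest adjusted p with both acids. Others are said to be chosen after seeing values, as are called loci of a list. Some loci that the rule names, and a locus of a list, are not reported here. Members and lists were chosen with earlier results of these data known. Alternatives were other scalings, filters, DESeq2 1.42.0, 2-group fits, a replicate block, single transcripts, all classes of an identifier, stricter thresholds and fits without each library. Figures were drawn with matplotlib 3.10.9; tables came from scipy 1.17.1, numpy 2.4.6, pandas 2.3.3 and Python 3.11.15.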

Additional observations from a re-analysis of the deposited data

How the results depend on the processing

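With palmitic acid, 28 antisense loci were called by the settings of the report, 44 with no filter on low counts, 39 with only the 2 groups compared, 39 with all classes of an identifier summed, 34 with DESeq2, 27 with DESeq2 size factors, 19 with library size alone, 16 at 2-fold or more, 6 at an adjusted p under 0.01 and 1 as single transcripts, and 8 to 19 without 1 library. With stearic acid the 83 calls became 97, 69, 114, 79, 83, 70, 38, 27 and 8 in the same order, and 49 to 72 without 1 library. Between the acids the 0 calls became 1 with no filter and stayed at 0 in the other settings. The cause of these moves was not tested; leaving out a library also leaves fewer samples. A replicate block gave 25, 83 and 0 calls in the 3 comparisons. Same-numbered libraries deviated together little (r from -0.05 to 0.06), so the numbers were not taken to pair the samples. Of 51 named calls the block lost 4, DESeq2 2, library size alone 8, no filter 3 and 2-group fits 3. Over all settings, 515 of 663 checks kept the call, 147 lost it and 1 turned, the locus inside Ppp2r5c at -0.18 with all classes summed. The difference in antisense share ranged from -0.42 to 0.18 percentage points without 1 library for palmitic acid, from -0.82 to 0.17 for stearic acid and from -0.61 to 0.39 between the acids, whose signs therefore rest on single libraries. Single transcripts gave no value for a named locus.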
